A study of Mus musculus with 26 samples.

Results

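The T cell receptor genes described here are the mouse genes whose symbols begin with Trav, Traj, Trac, Trbv, Trbj, Trbc, Trdv, Trdc, Trgv, Trgc or Tcrg in the GENCODE annotation. They number 258 of the 35944 genes counted in the series. Of these, 196 lie on chromosome 14, which carries the alpha and delta genes, 51 on chromosome 6 with the beta genes, and 11 on chromosome 13 with the gamma genes. The alpha chain has 128 V genes, 60 J genes and 1 constant gene. The beta chain has 35 V genes, 14 J genes and 2 constant genes. The delta chain contributes 6 V genes and 1 constant gene, and the gamma chain 7 V genes and 4 constant genes.

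The libraries came from TCRTg101 cells, CD8+ T cells of a mouse line that carries the alpha and beta receptor chains of a single T cell clone specific for the C1498 myeloid leukemia. The donors were C57BL/6 mice of 6 weeks, given as wild type in the labels, while the study's methods describe the line as crossed onto a Rag2-/- background. Except for naive day 0 samples, the cells were stained with the division dye CTV, transferred into mice that then received C1498 cells or stayed free of leukemia, and sorted again from spleen or liver. Each library thus describes sorted cells and not the whole organ. Among the 15 libraries, 14 were made by a low-input method. The controls were 3 leukemia-free spleen samples. Controls 1 and 2 were naive cells at day 0, and control 3 was cells from untreated hosts at day 18. An undivided CTVhi sample came from the spleen of leukemia-bearing mice at day 18. Cells from leukemia-bearing mice came from the liver early at day 7 (2 samples), mid at days 13 and 14 (3 samples) and late at days 16 and 18 (2 samples), and from the spleen at day 7 (2 samples) and day 14 (1 sample). The remaining library was naive day 0 material sequenced after oligo-dT priming, and it entered no test. The labels do not say that samples of a group came from separate mice, so the tests measure the spread between these samples, which may be technical. All samples share the transgenes and the strain, and the labels do not tell which transferred cells shared a donor.

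A receptor gene is assembled in the thymus from V and J segments, with a D segment between them in the beta and delta chains, and is spliced to a constant region. The Rag1 and Rag2 recombinase makes the cuts, so a cell without it cannot rearrange its own loci and can make a receptor only from a rearranged transgene. Unrearranged segments can still be transcribed at a low level, and a count on a V or J gene therefore need not come from a rearranged receptor. In sorted bulk samples, fewer cells that carry a transcript and less of that transcript per cell cannot be told apart.

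The study's methods name the transgenic segments as the TRAV13 family joined to TRAJ9 for the alpha chain and TRBV5 joined to TRBJ1-6 for the beta chain. Their sequences were read from the GENCODE transcripts of the GRCm38 build and are shown because they define what counts as transgenic in all that follows. The first pair is the J segments, printed whole, 5′ to 3′, with the run that matches TTNGGNNNNGG in capitals. That run covers the Phe-Gly-X-Gly codons that lie within most J segments.
Traj9: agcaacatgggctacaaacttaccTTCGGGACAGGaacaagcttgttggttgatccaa
Trbj1-6: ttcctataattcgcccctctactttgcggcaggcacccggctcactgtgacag
Traj9 lies at chr14:54209393-54209450 and Trbj1-6 at chr6:41535554-41535606, both on the + strand. The run was searched on the coding strand and is held by 57 of the 74 alpha and beta J genes (77.0%), and Trbj1-6 holds no match to it. The Trbj1-6 gene is only 53 bases long and Traj9 58 bases, which bears on the units described at the end.

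The alpha V counts of the Trav13 family fell mainly on 3 genes, of which Trav13d-2 (chr14:52942764-52943289) and Trav13n-2 (chr14:53253792-53254317) have the same sequence over 331 coding bases. The third, Trav13-4-dv7 (chr14:53757356-53757921), differs from them at 11 of the 331 bases, an identity of 96.7%. The last 150 bases of the V gene are shown for both sequences, with the 6 differing bases in capitals.
Trav13d-2: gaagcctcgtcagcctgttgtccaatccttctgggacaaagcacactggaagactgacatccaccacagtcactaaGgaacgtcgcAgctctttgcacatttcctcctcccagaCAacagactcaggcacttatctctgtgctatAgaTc
Trav13-4-dv7: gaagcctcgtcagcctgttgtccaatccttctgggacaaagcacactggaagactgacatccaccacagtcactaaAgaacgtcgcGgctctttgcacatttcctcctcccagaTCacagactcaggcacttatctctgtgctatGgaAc
Of the 31-base words of Trav13d-2, 100% also occur in another deposited transcript, and for Trav13-4-dv7 the share is 91.3%. Counts for single members of this family are therefore estimates of a split between near-identical copies, and the family was taken as a whole.

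The beta V genes are more distinct. Trbv5 (chr6:41062332-41062803, + strand) shares none of its 31-base words with another deposited transcript. Its last 150 bases are shown beside those of Trbv13-2 (chr6:41121396-41121832) and Trbv12-2 (chr6:41118851-41119364), the beta V genes that differed in late liver samples, with the TGT codon of the last cysteine in capitals.
Trbv5: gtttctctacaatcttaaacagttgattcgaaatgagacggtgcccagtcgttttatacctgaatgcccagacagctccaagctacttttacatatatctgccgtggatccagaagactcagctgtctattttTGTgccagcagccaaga
Trbv13-2: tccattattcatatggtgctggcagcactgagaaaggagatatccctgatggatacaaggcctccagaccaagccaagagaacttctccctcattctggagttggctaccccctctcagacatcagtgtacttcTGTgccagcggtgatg
Trbv12-2: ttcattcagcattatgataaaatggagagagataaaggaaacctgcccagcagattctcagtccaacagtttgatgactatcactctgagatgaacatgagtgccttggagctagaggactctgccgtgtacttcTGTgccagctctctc
Trbv12-2 and Trbv13-2 share 10.4% and 10.97% of their 31-base words with other deposited transcripts. Trbv12-2 ends 2031 bases before the start of Trbv13-2.

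Depth was 22918996 to 71358287 estimated counts in the 14 low-input libraries, with a median of 34349319, and 23189213 in the oligo-dT library. Levels are given as CPM, a gene's counts scaled to the same total of counts assigned to genes in each library, after the runs of a library were summed. The receptor genes took 1.93% to 4.49% of the counts. A count of 198 of the 258 genes reached 0.2 CPM in at least 1 low-input library, 39 reached it in all 14, and 6 had no count in any. Controls 1 and 2 stood apart from the other low-input libraries in their marker lists. The summed level of 10 myeloid markers, among them C1qb and Csf1r, was 1282 CPM in control 1 and 185 CPM in control 2, against 6.17 to 94.5 CPM in the other low-input libraries, and it was 799 CPM in the oligo-dT library. The summed level of 6 gamma delta and innate T cell markers was 121 CPM in control 1 and 41.6 CPM in control 2, against 5.03 to 24.5 CPM in the other low-input libraries and 125 CPM in the oligo-dT library. Most of it was Cd163l1, a scavenger receptor gene of gamma delta T cells, at 111 and 37.95 CPM in controls 1 and 2 and at or under 17.3 CPM in the other low-input libraries. The hepatocyte marker Alb was at or under 0.88 CPM in spleen samples and reached 95.2 CPM in late liver 1, while Trf, which macrophages also express, was at 328 CPM in control 1. The CD8 genes of the labelled cell type were high throughout, Cd8b1 between 767 and 2087 CPM, while Cd4 stayed between 0.14 and 5.49 CPM in the low-input libraries.

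The beta transgene was the dominant beta V signal in every library. Trbv5 took 99.8%, 99.9% and 99.7% of the beta V counts in controls 1 to 3, 99.8% in the undivided sample, 99.4% and 99.7% in early spleen, 99.8% in mid spleen, 99.1% and 99.9% in early liver, 99.8%, 99.5% and 99.8% in mid liver, and 99.6% and 99.0% in late liver. The lowest share was that of late liver 2, and the widest exact (Clopper-Pearson) 95% interval in a low-input library reached 0.0397 percentage points to each side, which covers counting error only. The oligo-dT library gave 99.8%. Trbj1-6, the J segment of the same transgene, was the leading beta J gene in each library, with 86.7% to 94.1% of the beta J counts.

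The alpha transgene was also the leading alpha V signal everywhere, but its share ranged widely. The Trav13 family took 84.8%, 87.3% and 73.9% of the alpha V counts in controls 1 to 3, and 73.1% in the undivided sample. It took 61.8% and 73.5% in early spleen, 91.8% in mid spleen, and 59.7% and 86.7% in early liver. In mid liver the shares were 96.4%, 64.2% and 95.6%, and in late liver 96.3% and 91.9%. The samples of a group thus lay apart by much more than the widest counting interval, which reached 1.62 percentage points to each side, and the low and the high shares did not follow the groups. Runs of the same library differed by at most 2.57 percentage points. The oligo-dT library, made from naive cells like controls 1 and 2, gave 83.4%.

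**Figure D1:**
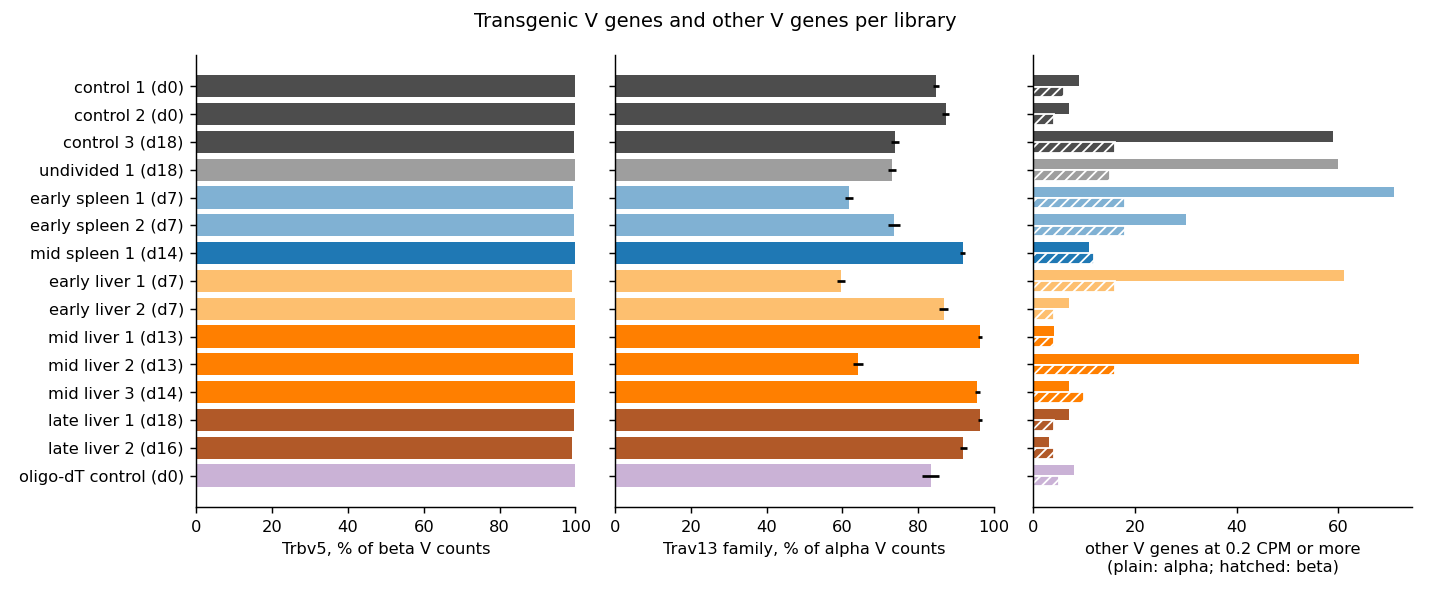
Each row is 1 library with its day, coloured by group. The left panel shows Trbv5 as a percent of beta V counts, the middle panel the Trav13 family as a percent of alpha V counts with exact 95% intervals, and the right panel the number of other alpha V genes (plain bars) and other beta V genes (hatched bars) at 0.2 CPM or more. Trbv5 is above 99% in every row, while the Trav13 share runs from 59.7% to 96.4%, and the 6 libraries with 30 or more other alpha V genes have the 6 lowest shares.

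The Trav13 family itself was between 79.4 and 203.8 CPM in the low-input libraries, so the share moved with both the family and the remainder. The 116 alpha V genes outside the family summed to 15.5, 11.6 and 70.0 CPM in controls 1 to 3 and to 75.0 CPM in the undivided sample. They summed to 89.7 and 33.7 CPM in early spleen, 13.4 CPM in mid spleen, 81.8 and 14.3 CPM in early liver, 3.02, 69.1 and 5.71 CPM in mid liver, and 3.43 and 7.62 CPM in late liver. Control 3, the undivided sample, early spleen 1, early liver 1 and mid liver 2 were therefore high, between 69.1 and 89.7 CPM, and early spleen 2 lay between them and the other low-input libraries, of which none passed 15.5 CPM.

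The number of these genes that reached 0.2 CPM separated the same libraries. It was 59 in control 3, 60 in the undivided sample, 71 in early spleen 1, 61 in early liver 1 and 64 in mid liver 2, of 116. It was 30 in early spleen 2 and 11 in mid spleen, and between 3 and 9 in the remaining 7 low-input libraries. The oligo-dT library had 8. In control 3, 32 of these genes were at 0.5 CPM or more, against 5 in each of controls 1 and 2. The sample names fall into the series TG and XC, which were used as the batch. All 5 libraries with 59 or more belonged to the XC series, and so did control 2, mid spleen 1, early liver 2, mid liver 3 and late liver 2, which had between 3 and 11.

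**Figure D2:**
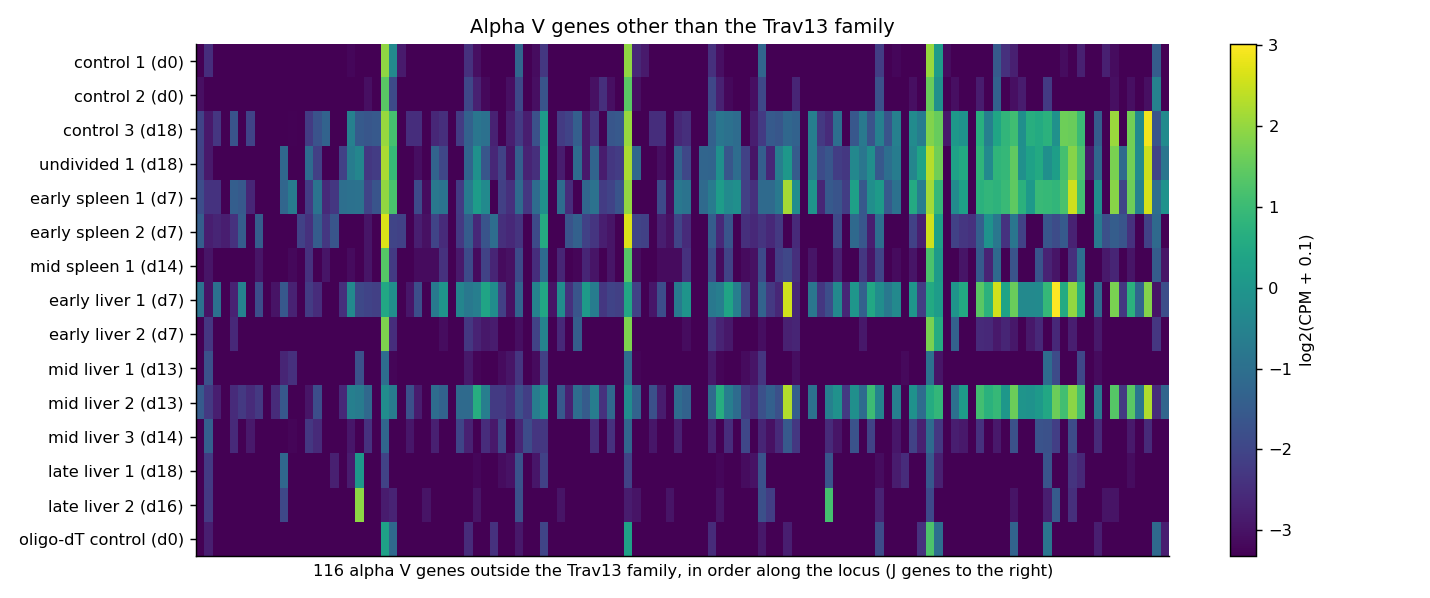
Rows are libraries and columns the 116 alpha V genes outside the Trav13 family in their order along the locus, with the J genes to the right. Colour gives log2(CPM + 0.1). Control 3, undivided, early spleen 1, early liver 1 and mid liver 2 show signal over most of the locus and early spleen 2 over part of it, with 30 genes at 0.2 CPM or more. The rest show 3 to 11 such genes, which in controls 1 and 2 include Trav14-1, Trav14d-1 and Trav14n-1.

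The libraries with many alpha V genes also shared a delta V gene. Trdv1, which lies in the alpha and delta locus, was at 0.02, 0.02 and 7.77 CPM in controls 1 to 3, 7.71 CPM in the undivided sample, 6.54 and 0.04 CPM in early spleen, and was listed at 0 in mid spleen. It was at 5.11 and 0.03 CPM in early liver, at 0, 4.86 and 0.07 CPM in mid liver, and at 0.02 and 0 CPM in late liver. The 5 libraries with 59 or more other alpha V genes thus lay between 4.86 and 7.77 CPM, and no other low-input library passed 0.07 CPM. Trav21-dv12, a V gene that can serve the alpha or the delta chain, gave 7.41 CPM in control 3, 5.62 in the undivided sample, 6.03 in early spleen 1, 3.50 in early liver 1 and 4.69 in mid liver 2. It was at or under 0.13 CPM in every other library. Neither gene shares a 31-base word with another deposited transcript.

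The other alpha V genes of these 5 libraries differed in which gene led. Trav21-dv12 was the highest in control 3, the undivided sample and early spleen 1, Trav7-6 in early liver 1 at 8.0 CPM, and Trav16n in mid liver 2 at 4.78 CPM. Trav16, a near copy of Trav16n that shares 59.2% of its 31-base words with it, was at 2.85, 3.57, 5.70, 3.87 and 3.67 CPM in these 5 libraries in the same order, and at or under 0.18 CPM elsewhere. The 10 alpha V genes nearest to the J genes, from Trav15-3 to Trav23, were looked at after the values were seen. They took 23.6% of the other alpha V counts in control 3, 18.6% in the undivided sample, 17.1% in early spleen 1, 11.4% in early liver 1 and 16.1% in mid liver 2, and between 0.459% and 5.57% in the remaining low-input libraries.

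Beta V genes other than Trbv5 were more numerous in the same libraries, though their summed level was small beside Trbv5. Of 34 such genes, 16, 15, 18, 16 and 16 reached 0.2 CPM in control 3, undivided, early spleen 1, early liver 1 and mid liver 2. Early spleen 2 had 18, mid spleen 12, mid liver 3 had 10, and the other 6 low-input libraries 4 to 6. Trbv16 was at 1.0, 0.69, 2.95, 6.95 and 3.55 CPM in the first 5 libraries and at or under 0.75 CPM in the rest. Trbv12-1 was highest in early liver 1, at 6.87 CPM, and between 0.10 and 2.69 CPM in the other low-input libraries. Trbv13-1, the highest of these genes by mean, was present in every library, at 14.4, 6.18 and 6.24 CPM in controls 1 to 3 and 14.6 and 14.5 CPM in late liver, and its late change was 1.01 ± 0.49 (SE) on the log2 scale with an adjusted p of 0.129 (edgeR). It led the other beta V genes in 12 of the 14 low-input libraries.

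Marker lists of other cell types gave mixed values in these 5 libraries. Cd4 was at 0.14 CPM in control 3, 0.21 in undivided, 0.36 in early spleen 1, 0.61 in early liver 1 and 0.86 in mid liver 2, against 0.27 to 5.49 CPM in the other low-input libraries. The 6 NK cell markers summed to 28.8 CPM in control 3, 84.7 in early spleen 1, 141 in early liver 1 and 82.7 in mid liver 2, against 25.03 to 168 CPM in the other low-input libraries. Eomes, which CD8 T cells also express, made up 27.5, 80.8, 129 and 76.9 CPM of these sums, and in undivided it was at 43.3 CPM. Ncr1, which defines NK cells, was at 0.12 CPM in early spleen 1 and at 0 in the other 4 libraries, while Klrb1c, which NK and some T cells express, was at 9.49 CPM in early liver 1, the highest value of all low-input libraries, 3.76 CPM in mid liver 2 and at or under 2.20 CPM in the other 3. The summed myeloid markers were between 6.17 and 19.8 CPM. The 6 gamma delta and innate T cell markers summed to 10.9, 9.20, 21.1, 24.5 and 13.5 CPM in the order of Cd4 above, with Cd163l1 at 3.96, 2.26, 14.1, 17.3 and 8.59 CPM. Apart from controls 1 and 2, the highest Cd163l1 value in another low-input library was 11.2 CPM. Sox13, a factor of gamma delta T cells, was between 1.55 and 3.26 CPM in these 5 libraries, at 3.75 CPM in early spleen 2 and 2.00 CPM in early liver 2, and between 0.45 and 0.89 CPM in the other low-input libraries. Zbtb16 was at or under 0.30 CPM in these 5 libraries. The part of other cells in the split was not tested beyond these values.

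The constant genes carry the parts of the receptor that the V and J segments do not set. Among the beta constants, Trbc2 took 95.0% to 97.6% of the counts of Trbc1 and Trbc2 in the low-input libraries, although 48.5% of its 31-base words also occur in Trbc1 and the split between them is an estimate. Trbc2 was at 30594, 19223 and 17031 CPM in controls 1 to 3, at 16011 and 11826 CPM in early liver, at 25645, 16950 and 18038 CPM in mid liver, and at 30020 and 18732 CPM in late liver. Among the low-input libraries, the 3 of the TG series were the highest, whichever their group, and the control and late values overlapped. Trbc1 ranged from 624 to 1002 CPM.

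Trac, the alpha constant, was at 618, 741 and 1101 CPM in controls 1 to 3, 1156 CPM in the undivided sample, 891 and 867 CPM in early liver, 850, 1124 and 1227 CPM in mid liver, and 940 and 1101 CPM in late liver. The oligo-dT library was the lowest at 373 CPM. Per length, in TPM, the deposited unit that divides counts by transcript length and scales each library to the same total, Trbc2 stood 14.5 to 53.6 times above Trac in the low-input libraries, with a median of 18.2, and Trbv5 stood 28.0 to 111 times above the Trav13 family. The highest ratio of both kinds was in control 1 among the low-input libraries. In these libraries the V to constant ratio in TPM was 0.525 to 0.737 for Trbv5 against both beta constants, and 0.198 to 0.410 for the Trav13 family against Trac. The oligo-dT library gave 31.5 for Trbc2 over Trac, 126 for Trbv5 over the Trav13 family, and V to constant ratios of 0.863 for the beta and 0.232 for the alpha chain.

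The delta and gamma constants were lower and varied more. Trdc was at 188, 225 and 290 CPM in controls 1 to 3, 326 CPM in undivided, 272 and 176 CPM in early spleen, 160 CPM in mid spleen, 99.4 and 193 CPM in early liver, 73.2, 142 and 65.6 CPM in mid liver, and 60.9 and 60.1 CPM in late liver. Mid and late liver samples lay below all control samples. Tcrg-C2, which shares 45.9% of its 31-base words with other transcripts, was highest in early liver 1 (19.3 CPM) and mid liver 2 (17.4 CPM) and between 0.11 and 6.76 CPM in the other low-input libraries. Trgv2, a gamma V gene, was highest in the same libraries, at 7.28 and 4.85 CPM, and at or under 2.14 CPM in the rest. Tcrg-C4, which shares no 31-base word with other transcripts, was at 27.0, 13.9 and 2.17 CPM in controls and 41.4 and 19.7 CPM in late liver, where the groups overlapped and the change was 1.30 ± 0.71 on the log2 scale (SE, edgeR adjusted p = 0.174). Tcrg-C1 was at 8.17, 4.66 and 0.11 CPM in controls and 7.52 and 8.26 CPM in late liver (edgeR adjusted p = 0.431). Tcrg-C3 stayed at or under 0.19 CPM.

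**Figure D3:**
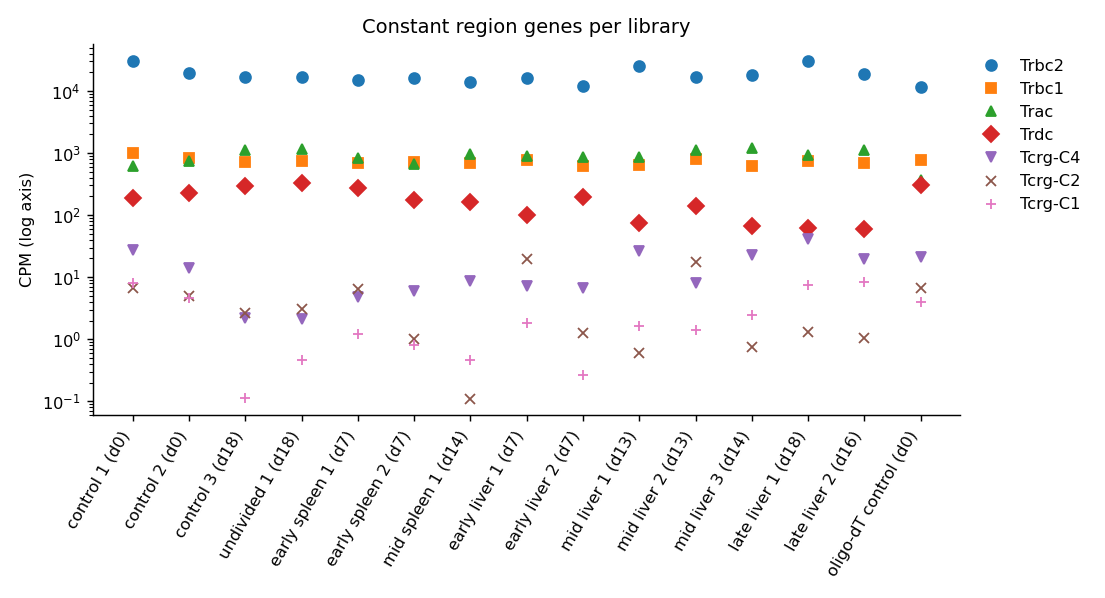
Points give the CPM of 7 constant region genes (log axis) in each library, ordered by group. CPM is not corrected for length, so the points of 1 gene are compared across libraries. Trdc runs from 326 CPM in the undivided sample to 60.1 CPM in late liver 2, while Trbc2 shows no such order and is highest in control 1 and late liver 1.

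The counts of all genes were tested together to ask which receptor genes differed between liver samples and controls. The series of sample names was a batch term. Every control came from spleen, so organ and leukemia cannot be told apart in these comparisons. Genes were kept where 6 or more of the 11 control, undivided and liver libraries had 10 or more counts, which left 14616 genes and 67 of the 258 receptor genes. In late liver against control, 16 of the 67 receptor genes passed an adjusted p of 0.05, 9 higher and 7 lower. Over all genes tested, 37.5% passed, 19.8% higher and 17.7% lower. The median log2 change was -0.02 over the receptor genes and -0.03 over all genes. In mid liver, 10 of 67 passed, 5 higher and 5 lower, against 31.3% of all genes, 17.3% higher and 13.9% lower. All 10 were among the 16. Both counts, and those of called genes below, hold Trav14d-1 and Trav14n-1 as separate genes. These share all their 31-base words and have the same values. The share of receptor genes that passed was thus below that of all genes in mid and late liver alike.

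None of the V and J segments that the methods name for the 2 transgenes was among them. In late liver, the log2 change of Trbv5 was 0.25 ± 0.19 (SE, edgeR adjusted p = 0.322), with a negative value of -0.04 when libraries were scaled by total counts alone. That of Trbj1-6 was 0.34 ± 0.20, that of Trav13d-2 was -0.02 ± 0.37, and that of Traj9 was -0.20 ± 0.42. Trbc2 changed by 0.31 ± 0.19 (edgeR adjusted p = 0.209). Trac was higher in late liver by 0.71 ± 0.23 (edgeR adjusted p = 0.0407), but the CPM of late and control samples overlapped, and with total counts alone the change was 0.41 with an adjusted p of 0.147. In mid liver, Trac differed by 0.58 ± 0.20 (edgeR adjusted p = 0.0575). Scaling by total counts moved the median of all genes from -0.03 to -0.32 in late and from -0.06 to -0.25 in mid liver.

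Of 6 beta V genes tested, 2 were higher in late liver (33.3%, against 19.8% of all genes), and both lie outside the transgene. Trbv13-2 was at 0.34, 0.44 and 1.85 CPM in controls 1 to 3, 1.01 CPM in undivided, 2.28 and 1.15 CPM in early spleen, 0.65 CPM in mid spleen, 2.29 and 0.30 CPM in early liver, 1.94, 2.22 and 0.21 CPM in mid liver, and 17.0 and 47.2 CPM in late liver. Only the late samples lay above 2.29 CPM. The late change was 5.58 ± 1.26 on the log2 scale (SE, edgeR adjusted p = 0.0173). Trbv12-2, the neighbouring gene, was at 0.43, 0.30 and 1.14 CPM in controls, between 0.20 and 2.68 CPM in early and mid liver, and at 4.71 and 10.9 CPM in late liver, a change of 4.03 ± 0.98 (edgeR adjusted p = 0.0188). Within the TG series, Trbv13-2 was 50.3 times higher in late liver than in control, and within the XC series 41.1 times, with 1 late library in each. Against mid liver directly, the late value of Trbv13-2 was higher by 4.40 ± 1.19, and this difference did not pass the correction over all genes (edgeR adjusted p = 0.911).

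Other V genes of the late samples were few. Trav11d led the other alpha V genes of both late libraries, at 0.95 and 3.77 CPM, and was between 0 and 0.66 CPM elsewhere. Trbv13-2 made up 45.7% and 64.5% of the other beta V counts in late liver 1 and 2. Segments of the Trav11 genes joined to Traj18 and paired with Trbv13-2 are known from invariant NKT cells. Traj18 was at 0.61 and 1.40 CPM in late liver and between 0.14 and 1.07 CPM in the other low-input libraries, and Zbtb16, the defining factor of those cells, was at 0.13 and 0.35 CPM, inside the range of 0 to 1.02 CPM of the other libraries. Klrb1c, which these cells share with NK cells, was at 3.78 and 5.41 CPM in late liver against 2.34, 2.54 and 0.68 CPM in controls 1 to 3. The late values thus lay above all controls, and the change was 1.58 ± 0.90 on the log2 scale (SE, edgeR adjusted p = 0.187). Early liver 1, at 9.49 CPM, lay above both late values, and mid liver 2 was at 3.76 CPM.

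Of 22 alpha J genes tested, 3 were higher in both mid and late liver and none was called lower. That is 13.6%, against 19.8% of all genes higher in late and 17.3% in mid liver. Traj27 was at 1.22, 0.99 and 1.21 CPM in controls, 1.45 and 2.00 CPM in early liver, 2.98, 2.80 and 3.63 CPM in mid liver, and 5.01 and 5.84 CPM in late liver, so each of these groups lay above the one before. Its change was 2.54 ± 0.35 in late (SE, edgeR adjusted p = 0.00814) and 1.66 ± 0.32 in mid liver (edgeR adjusted p = 0.0220). Traj37 rose by 1.96 and 1.90 and Traj41 by 2.78 and 2.42 on the log2 scale in late and mid liver, with Traj41 under 1 CPM in every library. The median change of the 22 genes was 0.50 in late and 0.41 in mid liver, and genes that did not pass reached down to -1.67 in late liver (Traj52, edgeR adjusted p = 0.171). Trdv4, a delta V gene, was higher by 1.91 ± 0.66 in late and 1.95 ± 0.60 in mid liver and did not pass 1.35 CPM anywhere.

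Genes that fell included the delta constant and its most abundant V gene. Trdc fell by 1.58 ± 0.41 in late (SE, edgeR adjusted p = 0.0213) and by 1.14 ± 0.34 in mid liver (edgeR adjusted p = 0.0372). Trdv2-2 was at 40.3, 24.2 and 28.3 CPM in controls, 11.1 and 26.1 CPM in early liver, 20.2, 14.8 and 7.43 CPM in mid liver, and 9.83 and 5.55 CPM in late liver. Late samples lay below all controls, and the late change was -1.88 ± 0.42 (edgeR adjusted p = 0.0150). In mid liver it was -0.98 ± 0.35 (edgeR adjusted p = 0.0607). Trdv2-2 shares 60.2% of its 31-base words with Trdv2-1. Cd163l1 moved with these genes, from 111, 37.95 and 3.96 CPM in controls 1 to 3 to 2.46, 8.59 and 2.04 CPM in mid liver and 0.41 and 0.16 CPM in late liver. Its change was -7.09 ± 1.56 in late (edgeR adjusted p = 0.0163) and -2.85 ± 1.09 in mid liver (edgeR adjusted p = 0.0797), and its part in the fall of the delta genes was not tested.

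Among alpha V genes, Trav14-1 and the identical pair Trav14d-1 and Trav14n-1 fell in mid and late liver, and the other 9 of the 12 tested did not pass. The shares of all genes that were lower were 13.9% in mid and 17.7% in late liver. Trav14-1 was at 4.02, 2.87 and 3.45 CPM in controls, 0.42, 1.40 and 0.37 CPM in mid liver, and 0.24 and 0.16 CPM in late liver, with log2 changes of -2.09 ± 0.59 in mid and -3.74 ± 0.76 in late liver (SE, edgeR adjusted p = 0.0321 and 0.0126). Trav14d-1 was at 3.82, 2.55 and 4.03 CPM in controls and rested on 8.8 and 1.5 counts in the late libraries, so its fitted late change of -4.75 has a wide counting error. Trav14-1 or the identical pair led the other alpha V genes in controls 1 and 2, early spleen 2, mid spleen and early liver 2. They also led in mid liver 1 and 3 and in the oligo-dT library. Of these libraries, early spleen 2 had 30 other alpha V genes at 0.2 CPM or more and the others between 4 and 11.

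Beta J genes moved in both directions. Trbj2-7 was at 22.6, 20.6 and 19.6 CPM in controls and 6.20 and 6.46 CPM in late liver, a change of -1.40 ± 0.32 (SE, edgeR adjusted p = 0.0157), and fell by 1.14 in mid liver. Trbj2-1 rose by 1.18 in late and 0.86 in mid liver, with late and control CPM overlapping (14.4, 8.42 and 7.31 CPM against 31.7 and 13.4 CPM). Trbj2-4 was higher by 1.67 and Trbj1-4 lower by 1.22 ± 0.41 in late liver, both named for being the rest of the 4 beta J genes past the threshold. In all, 14 of the 16 genes called in late and 9 of the 10 called in mid liver had groups that did not overlap in CPM. Among all genes called, this held for 89.1% in late and 83.3% in mid liver, so the receptor genes called were close to the background. All 16 and all 10 had the same direction within the TG and within the XC series. These genes include those named above and were selected by the test, so the counts are a description.

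**Figure D4:**
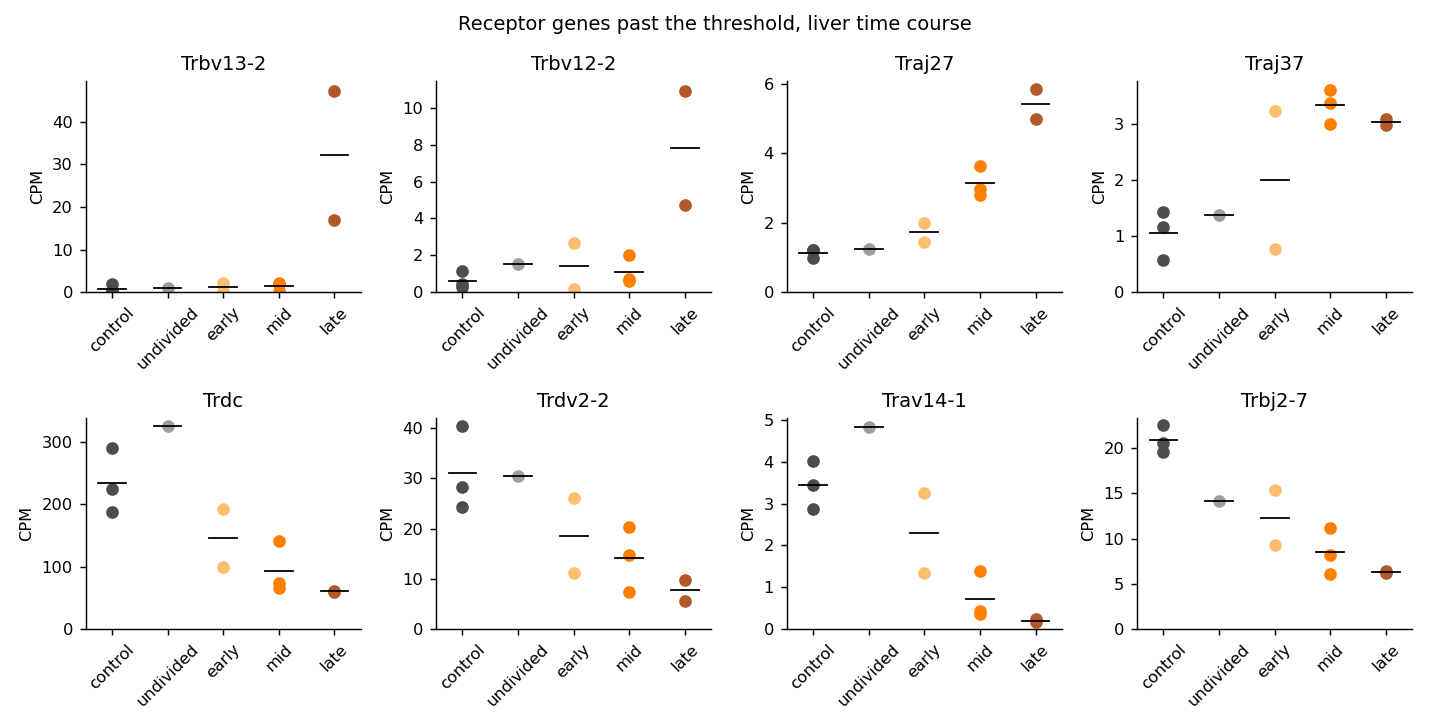
Each panel shows 1 receptor gene that passed the threshold in late liver, with a point per library in CPM and a bar at the group mean. Spleen samples are control (n = 3) and undivided (n = 1). Liver samples are early (n = 2), mid (n = 3) and late (n = 2). Trbv13-2 and Trbv12-2 are high only in the late samples, Traj27 and Traj37 are higher in mid and late, and Trdc, Trdv2-2, Trav14-1 and Trbj2-7 are lower.

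The late and mid calls rested on single libraries. Without control 1 the late count of receptor genes fell from 16 to 1, without control 2 to 9, and without late liver 1 or late liver 2 to 0. The mid count fell from 10 to 0 without control 1, without control 2, without mid liver 1 and without mid liver 3. The counts over all genes moved with them, in late liver to 149 of 14183 without control 1, 3399 of 14274 without control 2 and 0 without either late library, and in mid liver to 1 without control 1 or control 2 and 0 without mid liver 1 or mid liver 3. Every receptor gene called kept its direction in each of these fits.

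At day 7 no receptor gene passed. In early liver against control, 0 of 67 receptor genes passed with edgeR, against 0% of all genes, and 2 did at an unadjusted p of 0.05, against 10.2% of all genes. In early spleen against control, in a model of all 14 low-input libraries, 0 of 82 passed, against 0% of all genes, and 0 did at the unadjusted threshold, against 6.29%. DESeq2 also called 0 receptor genes in each, against 2.55% of all genes with an adjusted p in early liver and 0.0711% in early spleen. The direct comparisons gave no receptor gene either. Late against mid liver gave 0 of 67 (0% of all genes) and 6 unadjusted (5.36% of all genes), early liver against early spleen 0 of 82 (0% of all genes) and 0 unadjusted (9.02% of all genes), and mid liver against mid spleen 0 of 82 (0.00647% of all genes) and 5 unadjusted (5.81% of all genes), all with edgeR. DESeq2 was not run for the direct comparisons.

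Transcripts of the proteins that bring the receptor to the surface followed the constants only in part. Of 6 genes for the CD3 chains and CD8, Cd3e rose by 0.64 ± 0.18 (SE, edgeR adjusted p = 0.0266) and Cd3g by 0.67 ± 0.22 (edgeR adjusted p = 0.0415) in late liver, and 0 fell. Over all genes, 19.8% were higher. Late and control CPM overlapped for both genes. Cd3e was at 840, 957 and 1015 CPM in controls 1 to 3 and 976 and 1329 CPM in late liver. Cd3g was at 755, 540 and 654 CPM in controls and 1058 and 739 CPM in late liver. The median change of the 6 genes was 0.47, against -0.03 over all genes. None passed in mid, early liver or early spleen. Cd8b1, a chain of the CD8 co-receptor, had a late value of -0.55 ± 0.31 (edgeR adjusted p = 0.185).

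Of 10 tested genes that cut, extend and rejoin receptor genes, 2 fell and 1 rose in late liver, and 2 fell and 2 rose in mid liver. The shares of all genes that passed in either direction were 37.5% in late and 31.3% in mid liver, so these counts lay near the background. Dntt, the polymerase that adds bases at the joints, was at 19.3, 17.1 and 9.23 CPM in controls, 0.35, 1.46 and 0.31 CPM in mid liver, and 0.22 and 0.08 CPM in late liver, a late change of -6.25 ± 1.34 (SE, edgeR adjusted p = 0.0151). Rag2 was at 3.83, 2.96 and 2.30 CPM in controls, 0.25, 0.64 and 0.34 CPM in mid liver, and 0.11 and 0.13 CPM in late liver, with changes of -2.73 in mid and -4.30 in late liver (edgeR adjusted p = 0.0220 and 0.00998). Which part of the gene the Rag2-/- allele lacks is not given in the sources used here, so counts on Rag2 do not check the genotype. Rag1 stayed at or under 1.32 CPM in every library. The end-joining genes Xrcc5, in both comparisons, and Xrcc6, in mid liver, were the ones that rose. Dntt and Rag2 were lower in the same samples as Trdc and Trav14-1.

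Other marker lists moved with the liver samples. For scale, 19.8% of all genes tested were higher in late and 17.3% in mid liver, and 17.7% and 13.9% were lower. Of 6 genes of CD4 and regulatory T cells, 5 were higher in late and 3 in mid liver, while Cd4 itself was not. Those higher in late liver were Zbtb7b, the CD4 lineage factor, by 3.48 ± 0.90 (SE, edgeR adjusted p = 0.0219), Cd40lg, a helper T cell ligand, by 2.86 ± 0.79 (edgeR adjusted p = 0.0253), Foxp3, the regulatory T cell factor, by 2.19 ± 0.66 (edgeR adjusted p = 0.0320), and Ctla4 and Il2ra, which activated CD8 cells also express, by 3.89 and 6.44 on the log2 scale. Their late levels were 6.50 and 7.81 CPM for Zbtb7b, 3.84 and 7.11 CPM for Cd40lg, 1.60 and 2.82 CPM for Foxp3, and 97.1 and 279 CPM for Ctla4. Zbtb7b, Cd40lg and Il2ra were also higher in mid liver. Of 5 tested hepatocyte markers, 4 were higher in late and in mid liver. Of 9 tested myeloid markers, 5 were lower in late and 7 in mid liver, with control 1 holding the highest values. The lists of gamma delta and innate T cells (4 tested, Cd163l1 lower in late, 0 called in mid) and NK cells (3 tested, 0 called in late, 1 higher and 1 lower in mid) gave few calls. The part of these lists in the receptor genes' changes was not tested.

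The units of the deposited values matter for these genes. Trbj1-6 has 53 bases and the deposited effective length was 4.0 bases in every run. It took 0.0632% to 0.146% of the counts in the low-input libraries but 17.6% to 26.6% of the deposited TPM, and the receptor genes together took 29.6% to 41.6% of it. Since TPM sums to the same total in each library, the TPM of every other gene is lowered by that share, and by a different share in each library. The oligo-dT library was the lowest, with 10.8% of TPM on Trbj1-6.

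**Figure D5:**
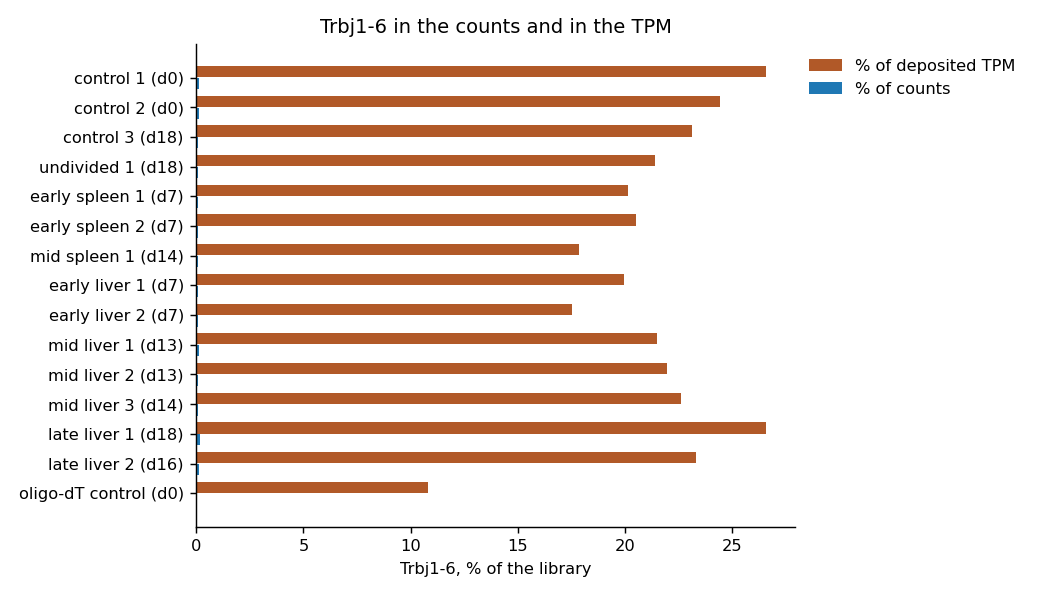
Bars give the percent of each library assigned to Trbj1-6, in deposited TPM and in counts. The TPM share lies between 17.6% and 26.6% in the low-input libraries and at 10.8% in the oligo-dT library, while the count share is at or under 0.146%.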

How the data were processed

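The authors sorted TCRTg101 cells by FACS, sequenced low-input RNA on the Illumina HiSeq in batches, and quantified reads with kallisto. Its version is not given in the sources used here, and the processing notes name the mm10 and GRCm38 builds. They deposited, per run, estimated counts and TPM for each transcript, 26 runs of 15 libraries.

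Transcripts were matched to GENCODE vM21 genes by identifier without version (98.3% of transcripts, 99.0% to 99.3% of counts). The deposited estimated counts were summed per gene and over the runs of a library and rounded to whole numbers. V, J and constant genes are separate transcripts there, so reads across a joint may match none.

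Counts were tested with edgeR 4.0.16 in R 4.3.3 (quasi-likelihood, TMM scaling with factors of 0.754 to 1.12, terms for group and series of names, genes with 10 counts in 6 of 11 libraries, Benjamini-Hochberg adjustment). Day 7 spleen was fitted with all 14 low-input libraries. Shares, levels and overlaps are descriptions. The deposited TPM served for ratios per length only. DESeq2 1.42.0, other scalings and filters, no batch term, first runs only and leaving out each library of the groups compared were alternatives. The tests were checked on simulated data. The members and lists were chosen with earlier results of these data known. Genes named are the transgene segments, the constants, the leading and highest other segments, up to 10 receptor genes called per comparison, and genes of the CD3 and recombination lists. Others were named after their values were seen. A withheld marker gene and its list are not reported here.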

Additional observations from a re-analysis of the deposited data

How the results depend on the processing

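No paired analysis was possible because the labels give no replicate numbers that groups share. Of the receptor genes called, each kept its direction under every alternative run. Trbv5 in late liver, not called, turned from 0.25 to -0.04 with total counts and no TMM factor. The late count of 16 receptor genes became 49 with no filter on low counts and 10 with no batch term, where 21.3% and 18.5% of all genes were called, and it ran from 0 to 16 when single libraries were left out. The mid count of 10 became 27 with no filter and 4 with no batch term (19.4% and 9.5% of all genes), and ran from 0 to 9 without single libraries. The early liver count of 0 became 7 with no filter, where 5.02% of 29525 genes were called. It stayed at 0 without any single control, where at most 0.133% of all genes were called. The day 7 spleen count also stayed at 0 without any single control, against 0% of all genes. Leaving out a day 7 liver or spleen library left a single library in its group, so no count is given. The study clustered an early sample with its controls and the other with its mid samples. With DESeq2 the counts were 20 in late and 14 in mid liver, against 42.5% and 37.3% of all genes. The causes were not tested. The median alpha share over 14 libraries was 85.7% for the Trav13 family, 35.9% for Trav13d-2 alone and 35.7% for Traj9 among alpha J genes. The median beta share was 99.8% for Trbv5 and 92.0% for Trbj1-6 among beta J genes. The median number of other alpha V genes was 10 at 0.2 CPM, 21.5 at 0.1 CPM and 5 at 0.5 CPM, floors chosen after seeing the data, as was the scaling by total counts. Where a library was left out, late liver held a single library, assumed to vary like the other groups. With 2 or 3 samples a group and near-identical gene copies, changes of low V and J genes, including those called, rest on few counts.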
